A study of Mus musculus with 12 samples.

Results

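The oligoadenylate synthetase genes were followed through 12 mouse mammary tumors as a family of 7, namely Oas1a, Oas1g, Oas1b, Oas2, Oas3, Oasl1 and Oasl2. They were found by matching the Ensembl identifiers of the count files, without version, to mouse symbols, and they are 7 of the 52636 genes in those files. All 7 had counts enough to be tested, among 17970 genes that did.

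Oligoadenylate synthetases bind double-stranded RNA and then join ATP into short chains, 2-5A, that carry 2',5' links. 2-5A is a second messenger of the antiviral response. The family is known as a target of interferon signalling in many tissues, mammary tumors among them.

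The tumors were grown from the 2153L mammary tumor line of genetically engineered mice, labelled as triple-negative breast cancer, in mammary fat pads of Balbc females. The cells carried p53ERTAM, a p53 protein switched on by tamoxifen, or an empty vector (EV). Combo was ORIN1001, an inhibitor of the IRE1α RNase, at 150 mg/kg daily with docetaxel, a microtubule drug, at 20 mg/kg weekly, and treatment with combo or vehicle lasted 8 days. Total RNA of whole tumors was depleted of ribosomal RNA and sequenced in stranded libraries.

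There were 4 groups of 3 tumors: p53ERTAM with combo, p53ERTAM with vehicle, EV with combo and EV with vehicle. All tumors came from 1 tumor line, and no label records which animals were given tamoxifen. Nor do the labels say that the 3 replicates of a group were separate mice, so p-values measure the spread between these samples. The question put to the family here is how its RNA differs between the treatments in tumors of each vector, and between the vectors under each treatment.

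Libraries held 13484873 to 24424964 counts and 21847 to 23910 detected genes. The 3 EV combo libraries stood apart: the noncoding gene Gm26917 took 10.7 to 11.1% of their counts against 0.133 to 1.10% in the other 9, protein-coding genes took 80.9 to 81.7% against 86.7 to 95.8%, and the mitochondrial genome took 0.703 to 0.957% against 1.43 to 2.16%. Among the EV vehicle tumors, replicate 2 had a summed 271 TPM, a count scaled by exon length and library size, of B and plasma cell markers, against 4.78 and 2.33 TPM in replicates 1 and 3. Cdkn1a, a p53 target, separated the vector labels, with 92.2 to 199.6 CPM, a count scaled by library size, in the 6 p53ERTAM tumors and 22.3 to 53.9 CPM in the 6 EV tumors. Trp53 itself had 48.4 to 65.0 CPM in p53ERTAM tumors and 39.8 to 55.0 CPM in EV tumors. Epithelial markers summed to 1667 to 5302 TPM over the 12 tumors, with none of the 8 at 0 in a group.

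All 7 genes lie on mouse chromosome 5 (GRCm38), in a pair of stretches. Oasl2 (chr5:114896936-114912234, plus strand) and Oasl1 (chr5:114923240-114937915, plus strand) are neighbours. Oas2 (chr5:120730333-120749853), Oas3 (chr5:120753098-120777661), Oas1g (chr5:120876142-120887613) and Oas1a (chr5:120896256-120907521) lie on the minus strand of the second stretch, and Oas1b (chr5:120812635-120824163) on its plus strand. Counts are over the exons of each gene. The exons of Oasl1 share 38 bases with the antisense gene Gm13822, and those of the other 6 overlap no annotated gene. Oas1a and Oas1g are near copies: 57.6% of the distinct 50-base stretches of Oas1a transcripts are also in another gene, all of these in Oas1g, and 45.7% of those of Oas1g are shared. Their separate counts are therefore uncertain. For Oas1b the share was 2.98%, for Oas3 0.521% and for Oasl2 0.138%, and it was 0 for Oas2 and Oasl1.

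The DNA just before the start of these genes is shown because the family is read here beside interferon target genes, which carry the interferon-stimulated response element, or ISRE. RefSeq promoters (GRCm38.p6) matched 5 of the 7 genes, all but Oas1b and Oas2. The ISRE core searched was GAAA, any 2 bases and GAAA again, on both strands, in the 250 bases before and 50 bases after the start, and it is in capitals in these 130-base stretches, written 5′ to 3′ on the strand of the gene.
Oas1a: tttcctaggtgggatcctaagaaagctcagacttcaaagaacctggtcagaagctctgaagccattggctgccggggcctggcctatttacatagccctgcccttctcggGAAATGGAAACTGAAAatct
Oas1g: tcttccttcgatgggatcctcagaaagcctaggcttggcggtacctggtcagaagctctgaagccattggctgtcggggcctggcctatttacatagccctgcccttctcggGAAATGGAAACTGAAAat
Oas3: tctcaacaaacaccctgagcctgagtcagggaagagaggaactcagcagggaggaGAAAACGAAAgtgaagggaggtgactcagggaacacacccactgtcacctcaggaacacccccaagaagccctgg
Oasl1: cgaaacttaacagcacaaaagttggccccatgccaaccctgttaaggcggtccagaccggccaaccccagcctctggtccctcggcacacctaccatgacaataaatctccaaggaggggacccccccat
These are chr5:120907526-120907655, chr5:120887614-120887743 and chr5:120777660-120777789 on the minus strand, and chr5:114923110-114923239 on the plus strand. Oas1a holds 2 overlapping matches from -20 to -5 relative to the start, Oas1g the same letters from -18 to -3, and Oas3 1 match from -75 to -66. Neither Oasl1 nor Oasl2 holds these letters in its window. Thus 3 of 5 windows of the family have the core, against 1131 of 32851 promoters of the table, or 3.44%. The window of Oas1c, which faces Oas1b, has 2 overlapping matches from -114 to -99 on the strand of Oas1b. A match is a run of letters and was not tested for binding.

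Combo against vehicle in p53ERTAM tumors gave all 7 genes a log2 fold change above 0. All 7 genes had higher CPM in every combo tumor than in any vehicle tumor, a separation upward that 17.6% of all genes tested showed. Of the 7, 4 rose at an adjusted p below 0.05 (edgeR quasi-likelihood test, Benjamini-Hochberg over all genes), against 3.3% of all genes tested, and none fell. The median log2 fold change was 1.40 over the family and 0.0050 over all genes tested. Of 10 macrophage markers 8 rose in the same comparison, and their part in the result was not tested. CPM here are scaled by the TMM factors that set library sizes.

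Oas1a, which encodes an active synthetase, had 37.0, 38.1 and 32.3 CPM in p53ERTAM combo tumors, against 10.5, 11.7 and 13.6 CPM in p53ERTAM vehicle tumors. Each combo tumor had more than 2 times the CPM of each vehicle tumor. The log2 fold change of Oas1a was 1.58 ± 0.26 (SE), a rise with an edgeR adjusted p of 0.00777. Its near copy Oas1g, also a synthetase gene, had 15.1, 17.2 and 12.4 CPM with combo and 5.35, 9.40 and 5.60 CPM with vehicle. The groups were apart, and the log2 fold change was 1.14 ± 0.33 with an edgeR adjusted p of 0.0544.

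Oas1b, the flavivirus resistance gene of mice, is annotated as a polymorphic pseudogene because many laboratory strains carry a truncated form. It had 11.9, 10.2 and 8.67 CPM in p53ERTAM combo tumors, against 5.35, 5.51 and 5.54 CPM in p53ERTAM vehicle tumors. The vehicle values lay close together and below all combo values. Oas1b rose by 0.91 ± 0.22 (log2, SE; edgeR adjusted p = 0.0296).

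Oas3, whose large synthetase favours long double-stranded RNA, had 75.4, 86.2 and 61.3 CPM with combo and 20.3, 34.3 and 29.8 CPM with vehicle. Its log2 fold change of 1.40 ± 0.42 was of the size of those called, with an edgeR adjusted p of 0.0661. Oas2, the other large synthetase, had 16.6, 14.9 and 13.6 CPM with combo and 7.34, 13.4 and 9.85 CPM with vehicle. The highest vehicle tumor came close to the lowest combo tumor, and Oas2 had the smallest log2 fold change of the 7, 0.57 ± 0.33 (edgeR adjusted p = 0.311).

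The pair of OAS-like genes, whose proteins end in ubiquitin-like domains, rose too. Oasl1, which in mice lacks synthetase activity and restrains production of the interferon factor IRF7, had 37.8, 38.6 and 32.5 CPM in p53ERTAM combo tumors, against 7.53, 14.5 and 14.9 CPM in p53ERTAM vehicle tumors. Oasl2, which in mice keeps synthetase activity, had 117, 135 and 101 CPM with combo and 27.1, 46.5 and 38.0 CPM with vehicle. In both genes the lowest combo tumor was more than 2 times the highest vehicle tumor. The log2 fold changes were 1.56 ± 0.31 for Oasl1 (edgeR adjusted p = 0.0179) and 1.66 ± 0.37 for Oasl2 (edgeR adjusted p = 0.0269).

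**Figure D1:**
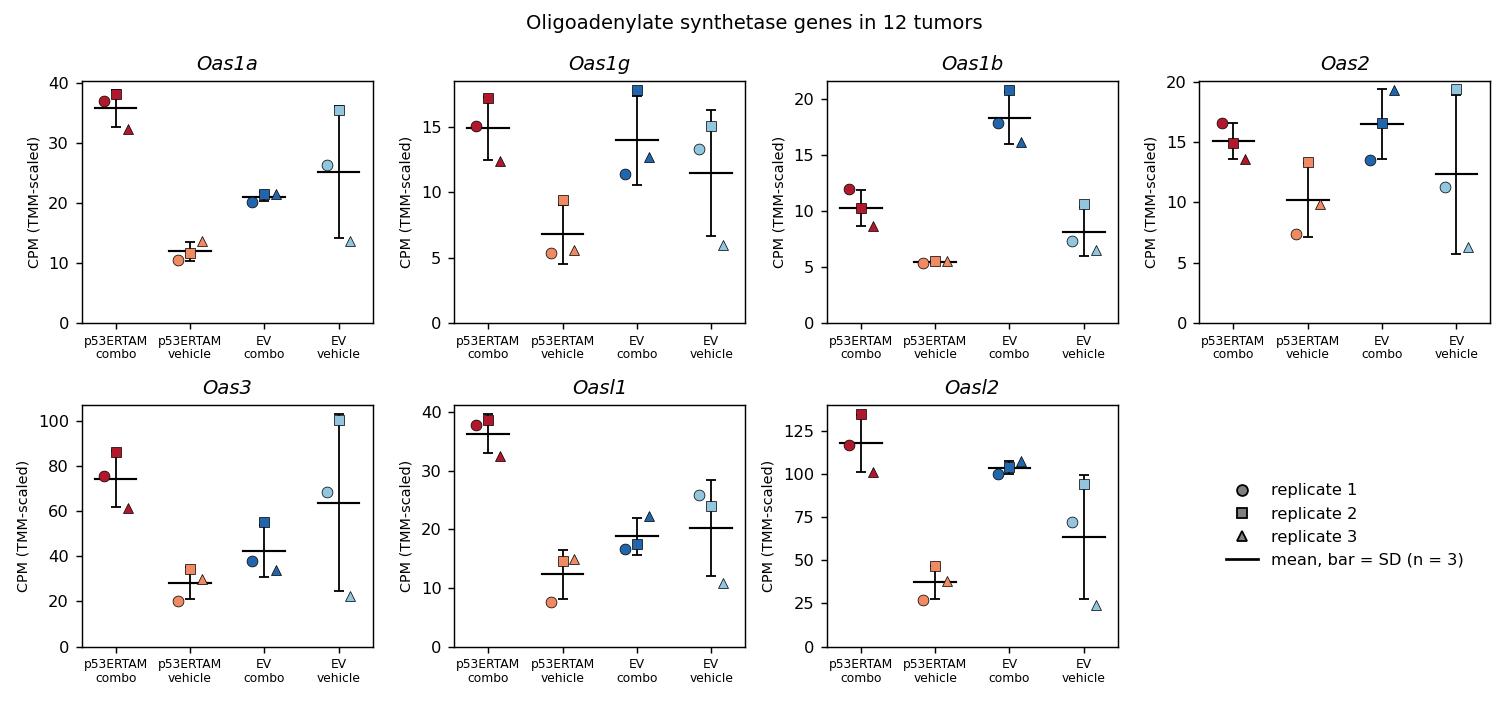
CPM (TMM-scaled, linear axes from 0) of each of the 7 genes in the 12 tumors, by vector and treatment, where points are tumors, marker shapes are replicate numbers and bars are mean and SD of 3. In every panel the p53ERTAM combo tumors lie above the p53ERTAM vehicle tumors, and EV vehicle tumors spread widely, as for Oas3 with 68.6, 101 and 22.4 CPM.

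These calls were close to the threshold in a design of 3 against 3. Without 1 library, the number of genes called was 0 without p53ERTAM vehicle replicate 1, 1 without p53ERTAM vehicle replicate 2 or p53ERTAM combo replicates 1 or 3, and 2 without p53ERTAM combo replicate 2, while the log2 fold changes of the 4 genes kept to between 0.80 and 1.86. Oas1a was then called in 11 of 12 cases, with an adjusted p of 0.0503 without p53ERTAM vehicle replicate 1. Without EV vehicle replicate 2 or 3, which are outside the comparison but share its estimate of spread, Oas1g (adjusted p = 0.0422 and 0.0132) and Oas3 (0.0355 and 0.00466) were also called.

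In EV tumors edgeR called a single gene of the family for combo against vehicle, Oas1b. It was 1 of 7 called higher, with none lower, against 18.8% of all genes tested called higher, 21.1% called lower and 39.9% called in all. This share is not above that of all genes. The other members are not shown to be unchanged, as 3 genes were called without EV vehicle replicate 2 and 3 without replicate 3. The median log2 fold change was 0.28 over the family and -0.067 over all genes tested. Oas1b had 17.8, 20.8 and 16.2 CPM in EV combo tumors, against 7.30, 10.6 and 6.51 CPM in EV vehicle tumors. All combo tumors were above all vehicle tumors. Oas1b rose by 1.16 ± 0.21 (log2, SE; edgeR adjusted p = 0.00113), and it was called in all 19 alternatives run for it, the 12 without 1 library included. In a fit of protein-coding genes and Oas1b, added after the values were seen, its log2 fold change was 1.29 (adjusted p = 0.000708). The different RNA makeup of the EV combo libraries and the treatment cannot be told apart.

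Oasl2 was the other gene whose EV groups stood apart upward, as 23.6% of all genes tested did, with 99.7, 104 and 107 CPM in EV combo tumors and 72.3, 94.5 and 24.3 CPM in EV vehicle tumors. The vehicle tumors spread over a wide range, and the log2 fold change was 0.70 ± 0.36 (edgeR adjusted p = 0.141). Without EV vehicle replicate 2 it was 1.14 (adjusted p = 0.0286). Oas2 had 13.5, 16.5 and 19.3 CPM with combo and 11.3, 19.3 and 6.25 CPM with vehicle, a log2 fold change of 0.42 ± 0.33 (adjusted p = 0.332) that became 0.94 (adjusted p = 0.0256) without the same library.

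The remaining 4 genes overlapped between the EV treatments. Oas3 had 37.8, 55.4 and 33.8 CPM in EV combo tumors and 68.6, 101 and 22.4 CPM in EV vehicle tumors, so that vehicle replicates 1 and 2 lay above and replicate 3 below all combo tumors. Oas1a had 20.2, 21.5 and 21.5 CPM with combo and 26.3, 35.5 and 13.6 CPM with vehicle, in the same arrangement. Their log2 fold changes were -0.60 ± 0.41 for Oas3 (edgeR adjusted p = 0.269) and -0.26 ± 0.25 for Oas1a (0.441). Without EV vehicle replicate 3 they were -0.97 (adjusted p = 0.0129) and -0.53 (0.0263), and both were then called lower.

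Oas1g had 11.4, 17.8 and 12.7 CPM in EV combo tumors and 13.3, 15.1 and 5.99 CPM in EV vehicle tumors. Oasl1 had 16.6, 17.4 and 22.3 CPM with combo and 25.9, 24.0 and 10.8 CPM with vehicle. Neither changed beyond the spread between tumors, with log2 fold changes of 0.28 (edgeR adjusted p = 0.513) and -0.11 (adjusted p = 0.807). The sign for Oasl1 turned where library sizes came from protein-coding genes (0.023).

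Whether the response to combo differed between the vectors was tested by the interaction, the log2 fold change in p53ERTAM tumors minus that in EV tumors. It was positive and called for Oas3 (2.0 ± 0.58, edgeR adjusted p = 0.0199), Oas1a (1.84 ± 0.36, 0.00217) and Oasl1 (1.67 ± 0.43, 0.0104). These are 3 of 7, against 18.8% of all genes tested called in this direction and 36% in either. The median interaction was 0.96 over the family and 0.13 over all genes tested. The EV combo libraries enter it, and their different RNA makeup cannot be told apart from the treatment. The interaction for Oas1b, which rose in tumors of both vectors, was -0.25 ± 0.30 (adjusted p = 0.538), and its interval leaves room for a difference of either sign. It was 0.96 ± 0.50 for Oasl2 (adjusted p = 0.159), 0.86 ± 0.46 for Oas1g (0.155) and 0.15 ± 0.47 for Oas2 (0.826).

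Oas1a and Oasl1 were called for the interaction in all 19 alternatives run. Oas3 was not called without EV combo replicate 3 (adjusted p = 0.0520), without p53ERTAM vehicle replicate 1 (0.0503) or where all genes with at least 1 count were tested (0.0849). Without EV vehicle replicate 3, Oasl2 (1.33, adjusted p = 0.00248) and Oas1g (1.15, 0.0259) were called as well, which made 5 of 7.

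**Figure D2:**
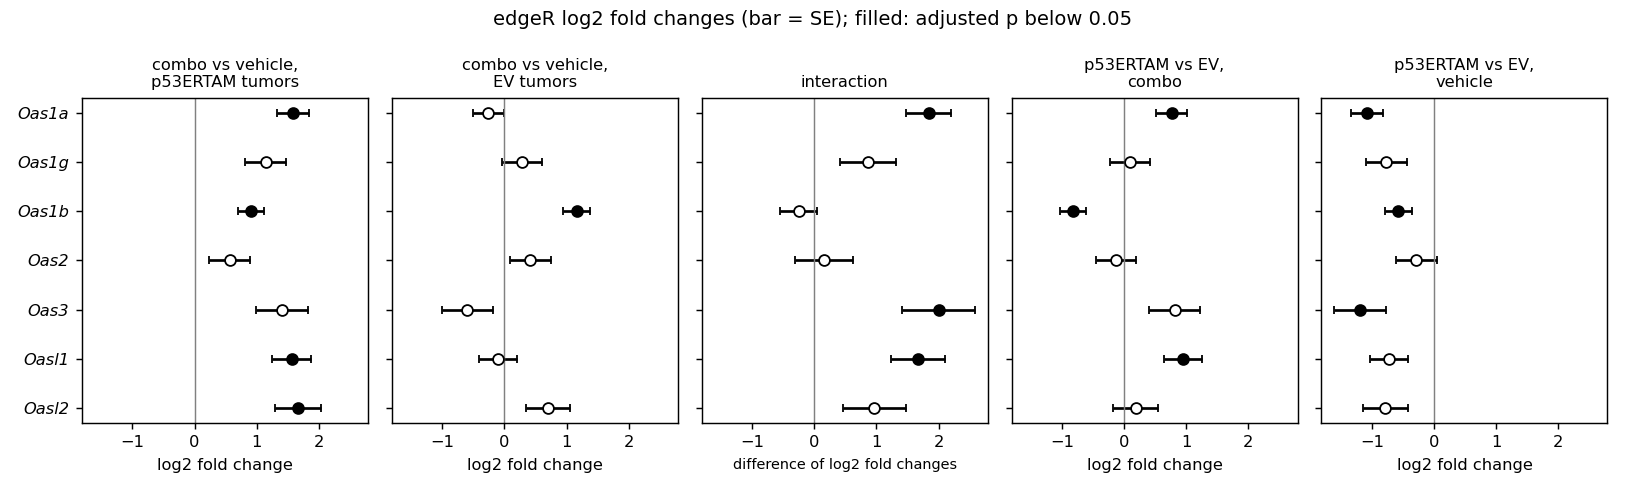
Log2 fold changes of the 7 genes from the edgeR fit in 5 comparisons (x axes, log2; bars are SE; filled points have an adjusted p below 0.05). The p53ERTAM panel shows all points right of 0, from 0.57 for Oas2 to 1.66 for Oasl2, and the EV panel shows points on both sides of 0, with Oas1b at 1.16.

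Under vehicle, 3 of the 7 genes, Oas1a, Oas3 and Oas1b, were called lower in p53ERTAM than in EV tumors and none was called higher. Of all genes tested, 19.8% were called lower and 17.9% higher. All 7 log2 fold changes were below 0, from -1.19 to -0.28, and their median was -0.77 against 0.0062 over all genes tested. Oas1a had 10.5 to 13.64 CPM in p53ERTAM vehicle tumors and 13.59 to 35.5 CPM in EV vehicle tumors, which overlapped slightly (-1.08 ± 0.26, edgeR adjusted p = 0.00561). It was called in all 21 alternatives run. Markers of other cells moved in the same comparison. Of 8 epithelial markers all 8 were called lower (median log2 fold change -1.45), and their summed TPM was 1667 to 2640 in p53ERTAM vehicle tumors and 3872 to 5302 in EV vehicle tumors. Endothelial markers were called higher for 6 of 8, with sums of 71.2 to 107 TPM in p53ERTAM vehicle tumors and 23.8 to 47.4 TPM in EV vehicle tumors. Fibroblast markers were called higher for 5 of 8, with sums of 610 to 1302 TPM in p53ERTAM vehicle tumors and 206 to 218 TPM in EV vehicle tumors. None of these 24 markers was at 0 in a group, and their part in the result on the family was not tested.

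Oas3 had 20.3 to 34.3 CPM in p53ERTAM vehicle tumors and 22.4 to 101 CPM in EV vehicle tumors, which overlapped (-1.19 ± 0.42, edgeR adjusted p = 0.0410). Oas1b had 5.35 to 5.54 CPM in p53ERTAM vehicle tumors and 6.51 to 10.6 CPM in EV vehicle tumors, with no overlap, as 24.1% of all genes tested showed downward (-0.58 ± 0.22, adjusted p = 0.0496). Neither call was steady: Oas1b was called in 2 of 20 alternatives and Oas3 in 9 of 21. Oasl2 (-0.78, adjusted p = 0.111), Oas1g (-0.77, 0.0800), Oasl1 (-0.72, 0.0822) and Oas2 (-0.28, 0.531) did not pass.

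These values turn on the EV vehicle tumors. Without EV vehicle replicate 3, the tumor lowest in all 7 genes among its group, 6 genes were called lower, with Oasl2 at -1.15 (adjusted p = 0.00106), Oasl1 at -1.0 (0.00761) and Oas1g at -1.05 (0.0105). Without EV vehicle replicate 1 or 2, without EV combo replicate 1 or 3, without p53ERTAM vehicle replicate 1 or 3, and without each p53ERTAM combo tumor, 1 gene was called.

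Under combo, 3 of the 7 genes were called between the vectors, a share close to the 44.1% of all genes tested called in either direction. Oas1a and Oasl1 were higher in p53ERTAM tumors, 2 of 7 against 22.1% of all genes tested, and Oas1b was lower, 1 of 7 against 22%. Oas1a had 32.3 to 38.1 CPM in p53ERTAM combo tumors and 20.2 to 21.5 CPM in EV combo tumors (0.77 ± 0.25, edgeR adjusted p = 0.0249). Oasl1 had 32.5 to 38.6 CPM in p53ERTAM combo tumors and 16.6 to 22.3 CPM in EV combo tumors (0.95 ± 0.30, adjusted p = 0.0227). Oas1b went the other way, with 8.67 to 11.9 CPM in p53ERTAM combo tumors and 16.2 to 20.8 CPM in EV combo tumors (-0.83 ± 0.21, adjusted p = 0.00626). In none of the 3 did the groups overlap, a separation that 32.3% of all genes tested showed upward and 29.4% downward.

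Oas1b was called in all 19 alternatives here, and with library sizes from protein-coding genes and Oas1b itself its log2 fold change was -0.94 (adjusted p = 0.00245). Oas1a and Oasl1 lost their calls without EV combo replicate 1 (adjusted p = 0.0709 and 0.0750), EV combo replicate 2 (0.0581 and 0.0694), p53ERTAM combo replicate 1 (0.0643 and 0.0574) or p53ERTAM combo replicate 2 (0.0692 and 0.0582), and Oas1a also without EV combo replicate 3 (0.0570). Oas3 was apart between the groups, with 61.3 to 86.2 against 33.8 to 55.4 CPM, at 0.81 ± 0.41 (adjusted p = 0.125), and was called without EV vehicle replicate 3 (0.0129). Oasl2 (0.18, adjusted p = 0.700), Oas1g (0.094, 0.828) and Oas2 (-0.13, 0.768) were near 0. The RNA makeup of the EV combo libraries enters the comparison under combo as well, and it cannot be told apart from the vector there. The comparisons share groups of tumors, so their fold changes are not independent of one another.

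Set in order over the 4 groups, mean CPM was highest with p53ERTAM combo for Oas1a, Oas1g, Oas3, Oasl1 and Oasl2, and highest with EV combo for Oas1b and Oas2. The p53ERTAM vehicle tumors had the lowest mean in all 7 genes. For Oas1b the order was EV combo, p53ERTAM combo, EV vehicle and p53ERTAM vehicle, at 18.3 ± 2.3, 10.3 ± 1.6, 8.14 ± 2.18 and 5.47 ± 0.10 CPM (SD, n = 3 each). Of these neighbours, p53ERTAM combo and EV vehicle overlapped. For Oas1a the order was p53ERTAM combo, EV vehicle, EV combo and p53ERTAM vehicle, at 35.8 ± 3.1, 25.1 ± 11, 21.1 ± 0.8 and 11.9 ± 1.6 CPM, and the EV vehicle range of 13.6 to 35.5 CPM took in all EV combo tumors and met both others.

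Per length, the family summed to 266, 289 and 223 TPM in p53ERTAM combo tumors, 72.6, 89.7 and 97.7 TPM in p53ERTAM vehicle tumors, 193, 226 and 214 TPM in EV combo tumors, and 177, 232 and 79.7 TPM in EV vehicle tumors. The p53ERTAM combo tumors thus lay well above the p53ERTAM vehicle tumors, while EV vehicle replicate 3 lay among the p53ERTAM vehicle values and replicates 1 and 2 lay just under and just over the EV combo range. Oas1a or Oasl2 had the highest TPM of the 7 in every tumor, and Oas2 had the lowest in 11 of 12 tumors, with Oas1b lowest in p53ERTAM vehicle replicate 2. In p53ERTAM combo tumors the means were 64.1 ± 6.3 TPM for Oas1a, 62.4 ± 9.7 TPM for Oasl2 and 11.4 ± 1.1 TPM for Oas2.

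The makeup of the sum differed between groups. Oas1b held 6.10 to 7.55% of the summed TPM in p53ERTAM combo tumors, 8.20 to 12.1% in p53ERTAM vehicle tumors, 13.7 to 16.3% in EV combo tumors and 6.45 to 12.8% in EV vehicle tumors. Oasl2 held 23.1 to 25.1% in p53ERTAM combo tumors, 19.1 to 21.7% in p53ERTAM vehicle tumors, 25.4 to 28.5% in EV combo tumors and 14.9 to 20.3% in EV vehicle tumors. For both genes the share in each EV combo tumor was above that in all other tumors. Oas3 held 8.03 to 12.3% in EV combo tumors and 12.4 to 19.4% in EV vehicle tumors, and Oas1a 17.8 to 19.5% in EV combo tumors and 24.5 to 28.2% in EV vehicle tumors. Shares of 1 sum move together, and they were not tested.

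**Figure D3:**
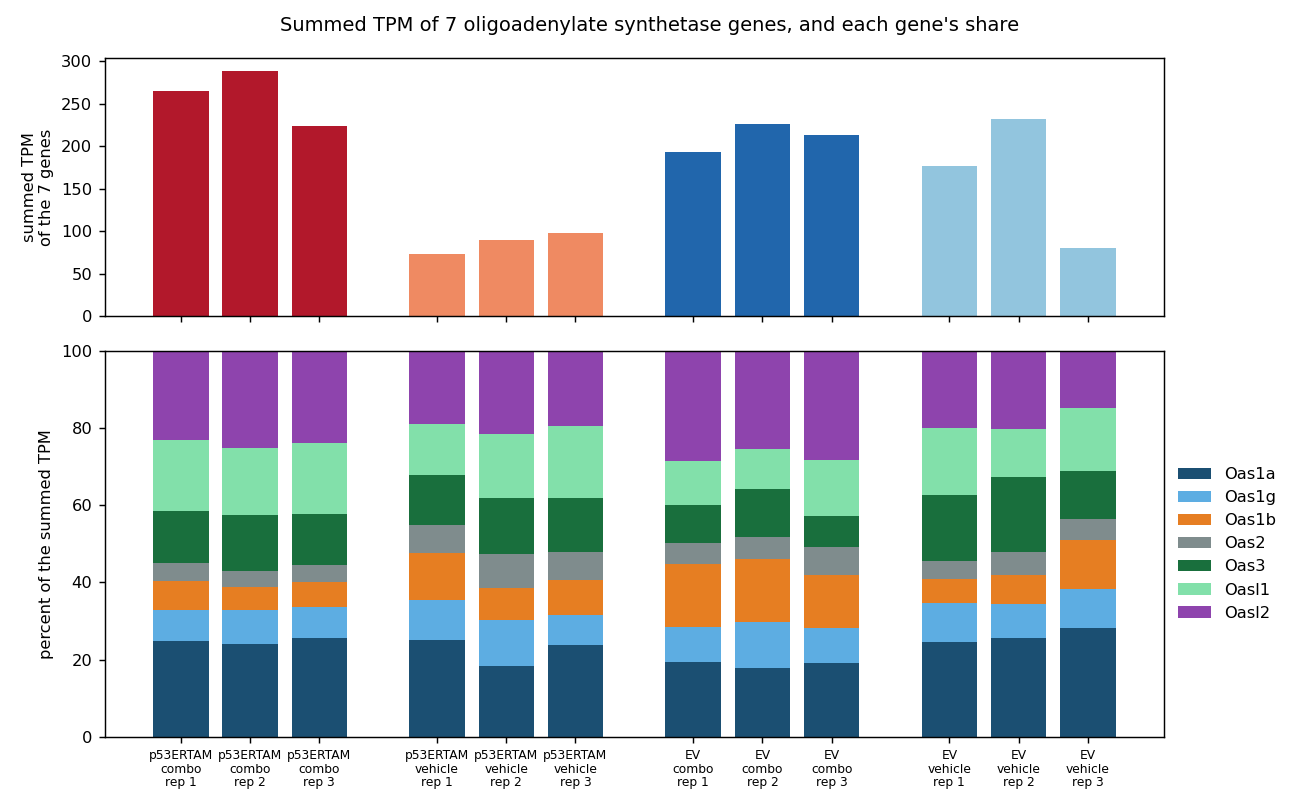
Upper panel: summed TPM of the 7 genes in each of the 12 tumors (bars from 0). Lower panel: the percent of that sum held by each gene, where the band of Oas1b is widest in the 3 EV combo tumors, at 13.7 to 16.3%.

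Over the 12 tumors the genes whose log2 CPM, centred on their own mean, ran closest to the mean of the family were Samd9l, Ifih1, Dhx58, Parp14, Irf9 and Trafd1. Their root-mean-square differences from it were 0.124, 0.167, 0.191, 0.241, 0.257 and 0.263 on the log2 scale. Of the family itself Oas1g ran closest to this mean, at 0.165, and Oas1b farthest, at 0.475. The nearest non-member was closer than any member, but it was picked from all genes tested. It therefore does not measure how alike the members are. The nearest gene to Oas1b was Ikbke (0.269), to Oas1a Parp9 (0.227), to Oas1g Ifih1 (0.229) and to Oasl1 its relative Oas1a (0.254). The nearest to Oasl2 was Samd9l (0.229), to Oas2 Trafd1 (0.257) and to Oas3 Irgm1 (0.265). The 12 tumors are 4 groups of 3, so the measure reads group differences and the spread within groups together.

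Of the other Oas1 genes of the chromosome 5 cluster, Oas1c had counts enough to be tested and the rest were scarcely seen. Oas1c had 2.50 to 6.88 CPM over the 12 tumors, and edgeR called it in none of the 5 comparisons, with an unadjusted p below 0.05 in 1 (p53ERTAM against EV under combo). Oas1d, known from mouse oocytes, had 2 counts in 1 tumor, Oas1e 2 counts in 1 tumor and Oas1f 2 counts in each of 2 tumors. Oas1h had no count in any tumor, where 3 counts, 0.123 to 0.222 CPM by library, is the limit a count of 0 allows for counting error. That limit takes counts as independent, and it is higher where 1 fragment gave 2 counts.

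The 3 genes described here that hold 2-5A signalling back, Abce1, Pde12 and Akap7, all fell with combo in EV tumors. Abce1, an ATPase that also recycles ribosomes, had 101, 110.5 and 115 CPM in EV combo tumors and 172, 164 and 222 CPM in EV vehicle tumors (-0.78, edgeR adjusted p = 0.00136). Pde12, a phosphodiesterase that degrades 2-5A, had 45.6, 51.4 and 48.0 CPM with combo and 72.5, 74.4 and 69.9 CPM with vehicle (-0.58, adjusted p = 0.00211). Akap7, whose protein can also degrade 2-5A in mice, had 8.25, 7.51 and 6.04 CPM with combo and 11.5, 11.63 and 20.5 CPM with vehicle (-1.0, adjusted p = 0.00536). In all 3 genes each EV combo tumor was below every EV vehicle tumor, as 26.9% of all genes tested were. The exons of Pde12 share 589 bases with Arf4 and Mir7672, so its counts are uncertain to that extent.

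In p53ERTAM tumors the log2 fold changes with combo were 0.24 for Abce1 (edgeR adjusted p = 0.336), 0.22 for Pde12 (0.272) and 0.25 for Akap7 (0.539). The interaction was called for all 3, at 1.01 for Abce1 (edgeR adjusted p = 0.00268), 0.80 for Pde12 (0.00311) and 1.26 for Akap7 (0.0114). Of all genes tested, 18.8% were called upward for the interaction. Under vehicle Abce1 and Pde12 were lower in p53ERTAM than in EV tumors (-0.84, adjusted p = 0.000796, and -0.70, 0.000647).

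**Figure D4:**
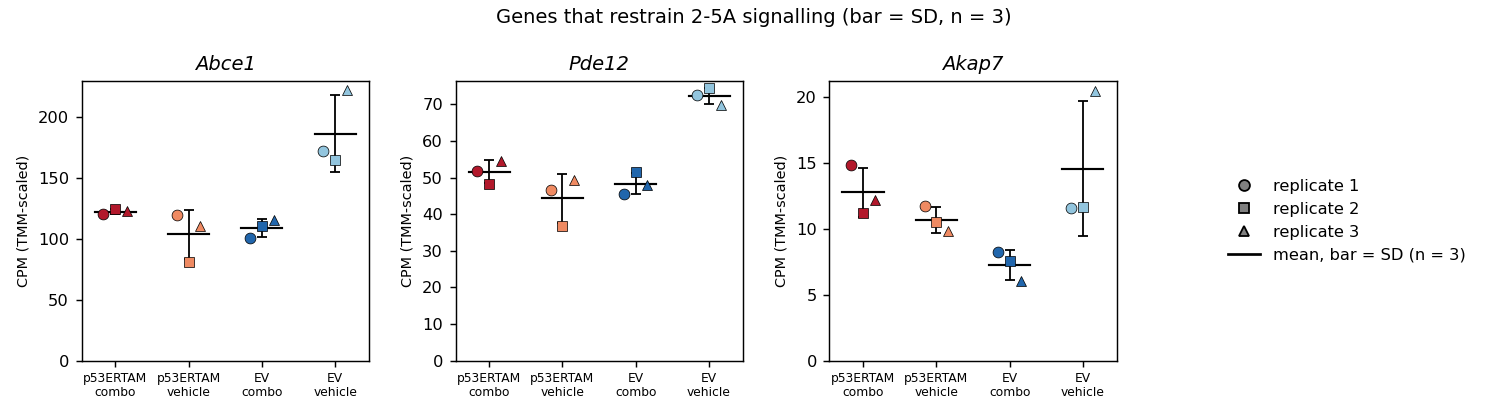
CPM (TMM-scaled, linear axes from 0) of Abce1, Pde12 and Akap7 in the 12 tumors, where points are tumors and bars are mean and SD of 3. Abce1 and Pde12 are highest in the EV vehicle tumors, at 164 to 222 and 69.9 to 74.4 CPM.

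The interferon genes themselves, the ligands that induce this family, were at the limit of detection. Of 20 in the files, 13 had no count in any tumor, the highest count in any tumor was 5, for Ifng, and none passed the filter to be tested. Ifnb1 had 12 counts over the 12 tumors. The receptors and kinases were measured in all tumors. Of 9, 3 rose and none fell with combo in p53ERTAM tumors, against 3.3% of all genes tested called higher. The 3 were Ifngr1 (0.78), Jak2 (0.49) and Jak1 (0.48). In EV tumors none rose and 3 fell, Ifngr2 (-0.56), Jak2 (-0.41) and Jak1 (-0.43), where 21.1% of all genes tested were called lower.

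Of 11 interferon factors and feedback genes, 7 rose and none fell with combo in p53ERTAM tumors, against 3.3% of all genes tested called higher. The median log2 fold change of the 11 was 0.99. Among the 7 were Stat2 (1.26, edgeR adjusted p = 0.00140), Usp18 (2.26, 0.00556) and Irf9 (1.07, 0.0111). Stat2 and Irf9 are parts of the factor that binds the ISRE, and Usp18 damps the receptor. In EV tumors edgeR called none of the 11 in either direction and 2 had an unadjusted p below 0.05, while 7 of the 11 log2 fold changes were above 0 and the median was 0.092. The interaction was called upward for 8 of 11, against 18.8% of all genes tested. Irf7, whose translation Oasl1 restrains in mice, was at 2.32 (edgeR adjusted p = 0.00579).

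Of 15 other interferon-stimulated genes, 13 rose and none fell with combo in p53ERTAM tumors (median 1.39), against 3.3% of all genes tested called higher. Among the 13 were Ifit1 (2.30, edgeR adjusted p = 0.00114), Parp9 (1.21, 0.00417) and Ifit2 (1.39, 0.00705). In EV tumors 2 rose, Herc6 (1.23, adjusted p = 0.00199) and Mx2 (1.17, 0.0303), and 1 fell, Bst2 (-0.88, 0.00386), with a median of -0.20. Herc6 and Mx2, like Oas1b, had interactions near 0 (-0.20, adjusted p = 0.683, and -0.010, 0.991). Of 11 other double-stranded RNA sensors, adaptors and editors, 7 rose and 1 fell with combo in p53ERTAM tumors. Of all genes tested, 3.3% were called higher there and 2.98% lower. Ddx58, which encodes RIG-I (0.90, adjusted p = 0.00480), Eif2ak2, which encodes PKR (1.07, 0.00556), Ifih1, which encodes MDA5 (1.22, 0.0133) and Zbp1, a sensor of Z-form nucleic acids (1.96, 0.0168) had the smallest p of those that rose. In EV tumors 1 of the 11 rose, the editing enzyme Adar (0.47, adjusted p = 0.0202), and 2 fell, Ticam1 (-0.67, 0.00214) and Tlr3 (-0.60, 0.0353), against 18.8% of all genes tested called higher and 21.1% lower.

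Under vehicle, 4 of the 15 interferon-stimulated genes were lower in p53ERTAM than in EV tumors and none was higher, against 19.8% of all genes tested called lower and 17.9% higher, with Ifit1 at -1.39 (edgeR adjusted p = 0.000837), Ifi35 at -0.87 (0.00133) and Parp9 at -0.77 (0.00315). Under combo 10 of 15 were higher in p53ERTAM tumors and none lower, against 22.1% of all genes tested called higher, with Bst2 at 1.22 (adjusted p = 0.000355) and Ifit2 at 1.12 (0.00127). Of cGAS and STING, the DNA-sensing pair whose synthase shares the OAS fold, Tmem173 (STING) fell with combo in EV tumors (-1.05, adjusted p = 0.00103) and Cgas did not pass (-0.31, 0.144). Under vehicle Cgas was lower in p53ERTAM than in EV tumors (-0.99, adjusted p = 0.000709).

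Markers of some immune cells rose with combo in p53ERTAM tumors, where the family rose, and others did not. Of 6 neutrophil markers tested there, edgeR called none, 2 log2 fold changes were above 0 and the median was -0.054. Of 6 NK and cytotoxic cell markers tested, edgeR called none, all 6 log2 fold changes were above 0 and 4 had an unadjusted p below 0.05. Of 10 macrophage markers, 8 rose and none fell with combo in p53ERTAM tumors, against 3.3% of all genes tested called higher. The summed TPM of the 10 was 2339 to 3077 in p53ERTAM combo tumors, 848 to 1140 in p53ERTAM vehicle tumors, 802 to 1076 in EV combo tumors and 937 to 1207 in EV vehicle tumors. None of the 10 was at 0 in a group. In EV vehicle replicates 1, 2 and 3 this sum was 1207, 1057 and 937 TPM, and that of the OAS family was 177, 232 and 79.7 TPM. T cell markers summed to 39.3 to 47.1 TPM in p53ERTAM combo tumors, 17.2 to 24.3 TPM in p53ERTAM vehicle tumors, 8.43 to 17.5 TPM in EV combo tumors and 12.1 to 73.0 TPM in EV vehicle tumors. Of the 10, edgeR called none with combo in p53ERTAM tumors, where 4 had an unadjusted p below 0.05. In EV tumors 3 of the 10 fell, against 21.1% of all genes tested called lower. In EV vehicle replicates 1, 2 and 3 the T cell sum was 20.6, 73.0 and 12.1 TPM. What macrophages or T cells add to the spread of OAS RNA between these tumors was not tested.

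Dendritic cell markers summed to 232 to 234 TPM in p53ERTAM combo tumors and 86.1 to 116 TPM in p53ERTAM vehicle tumors. Of the 8, 2 were called higher, against 3.3% of all genes tested, and most of the sum was Bst2 and Itgax. Bst2, also 1 of the 15 interferon-stimulated genes, had means of 163 TPM with combo and 74.0 TPM with vehicle. Itgax had means of 54.7 and 15.3 TPM. Fibroblast markers summed to 442 to 872 TPM in EV combo tumors and 206 to 218 TPM in EV vehicle tumors. Of these 8 markers 6 rose, against 18.8% of all genes tested called higher in EV tumors. Of 8 endothelial markers 5 rose with combo in EV tumors, against the same 18.8%, with sums of 54.3 to 105 TPM in EV combo tumors and 23.8 to 47.4 TPM in EV vehicle tumors. The part of these cells in the results on the OAS genes was not tested. In RNA of whole tumors, fewer cells of a type and less RNA per cell cannot be told apart.

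**Figure D5:**
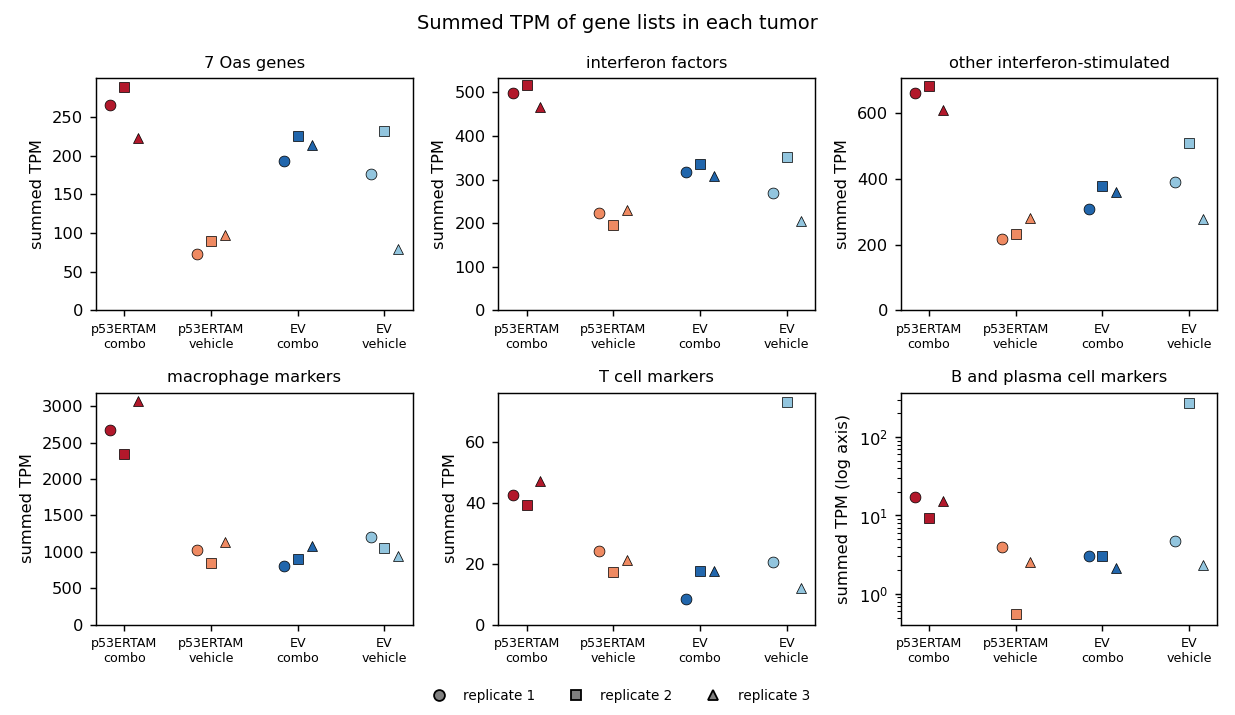
Summed TPM of the 7 OAS genes, 11 interferon factors, 15 other interferon-stimulated genes and 3 lists of immune cell markers in each of the 12 tumors (axes from 0, except the log axis for B and plasma cell markers). The p53ERTAM combo tumors are highest for interferon factors, interferon-stimulated genes and macrophage markers, at 467 to 516, 612 to 683 and 2339 to 3077 TPM.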

How the data were processed

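Per the labels' protocols, bulk tumor RNA (12 tumors) was isolated by Direct-zol columns and made into stranded, ribosome-depleted total RNA libraries. The submitters' processing notes name STAR and featureCounts, after FastQC and fastp, on GRCm38.p5, with no version numbers. Which annotation release was used, whether counting used strand, and how mates were treated are not given in the sources used here. What the authors deposited are unnormalised counts by gene with summed exon length, per the file headers. Of counts from 1 to 20, 66.3 to 71.7% were even, and of counts above 200, 49.2 to 52.1%, so 1 fragment may often give 2 counts.

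Groups were taken from the sample titles. The members and gene lists were chosen with earlier results of these data known. Symbols came from GENCODE M21, which matched 52403 identifiers and left 233 unmatched. Counts were tested with edgeR 4.0.16 (R 4.3.3): filterByExpr over the 4 groups (17970 genes), TMM (factors 0.941 to 1.05), robust quasi-likelihood F-tests with 1 model for the 4 groups (8 residual degrees of freedom), and Benjamini-Hochberg over all genes tested, threshold 0.05. The biological coefficient of variation was 0.221. The code was tested on simulated counts. TPM were computed from counts and exon length. Alternatives were DESeq2 1.42.0 (its size factors, and its Wald test), limma 3.58.1 (voom with quality weights), no filter beyond 1 count, protein-coding genes only, the 2 groups alone, EV combo left out, the Oas1 genes summed, a replicate block and each library left out. A fit of protein-coding genes with Oas1b was added after seeing the data. Like-numbered samples were checked for pairing: of 18 pairs, 2 had deviations that correlated above 0.1 (r from -0.15 to 0.21), so the numbers were not taken to pair samples. Named were all 7 members, regulators of 2-5A, p53 label checks, up to 4 genes of smallest p of each other list, and the genes closest in profile, and some genes that this rule names are not reported here.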

Additional observations from a re-analysis of the deposited data

Results flagged for a closer look

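The response to combo differed between p53ERTAM and EV tumors, by the interaction in edgeR's quasi-likelihood test, for 3 of the 7 oligoadenylate synthetase genes. The interaction was 1.84 on the log2 scale for Oas1a (adjusted p = 0.00217), 2.0 for Oas3 (adjusted p = 0.0199) and 1.67 for Oasl1 (adjusted p = 0.0104). The call for Oas3 was lost where all genes with at least 1 count were tested (adjusted p = 0.0849) and without either of 2 libraries, EV combo replicate 3 (0.0520) or p53ERTAM vehicle replicate 1 (0.0503). In p53ERTAM tumors all 3 had higher CPM in each of 3 combo tumors than in each of 3 vehicle tumors. In EV tumors the treatments overlapped for all 3, with EV vehicle replicate 3 the lowest of its group. Of all genes tested, 36% had a called interaction in either direction. The EV combo libraries enter the interaction, and their different RNA makeup cannot be told apart from the treatment.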

How the results depend on the processing

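Gene-level values for the 7 genes, over 702 pairs of a result and an alternative, kept their side of the threshold and their sign in 595, were no longer called in 60, were newly called in 32 and turned sign in 15. Number of members called in EV tumors (1): 0 with protein-coding genes only, which leaves out Oas1b, and 0 with the Oas1 genes summed. In p53ERTAM tumors (4): 7 with limma voom, while Oas1b was lost with EV combo left out (adjusted p = 0.0602) and Oasl2 without the filter (0.0813). Vectors under vehicle (3): 5 with voom, 1 without the filter and 1 with the 2 groups alone. Vectors under combo (3): 1 with the Oas1 genes summed, and Oasl1 was lost without the filter (adjusted p = 0.0697). Interaction (3): 5 with voom, and Oas3 was lost without the filter (0.0849). The Oas1 genes summed gave log2 fold changes of 1.22 in p53ERTAM tumors (edgeR adjusted p = 0.0143) and 0.24 in EV tumors (0.413).

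Over all genes, calls for p53ERTAM tumors (1129) were 2353 with DESeq2, 3748 with voom, 1890 with the 2 groups alone and 627 with EV combo left out, and for the interaction (6473) 4086 with protein-coding genes only and 4086 with Oas1b added. The cause was not tested. Leaving out each library in turn gave 1 to 3 members called in EV tumors, 0 to 6 in p53ERTAM tumors, 1 to 6 under vehicle, 1 to 4 under combo and 2 to 5 for the interaction, and 5669 to 7662, 77 to 2130, 4921 to 6707, 5912 to 8640 and 4901 to 6834 genes in all.

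Signs turned with protein-coding genes only, and with Oas1b added, for Oasl1 in EV tumors (0.023 in both), Oas1g under combo (-0.015 in both) and Oas2 for the interaction (-0.033 in both). Over single libraries left out the log2 fold change ranged in EV tumors from -0.53 to 0.11 for Oas1a and -0.38 to 0.12 for Oasl1, for the vectors from -0.58 to 0.23 for Oas2 under vehicle, -0.032 to 0.31 for Oas1g and -0.25 to 0.0043 for Oas2 under combo, and from -0.36 to 0.45 for the interaction of Oas2. Library sizes from protein-coding genes moved the median of all genes by 0.13 in EV tumors, -0.11 under combo and -0.18 for the interaction.

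With the replicate number as a block, 6 members were called in p53ERTAM tumors, as Oas1g (1.17, adjusted p = 0.0281) and Oas3 (1.38, 0.0416) became calls. Under vehicle Oas1g was gained (adjusted p = 0.0368) and Oas1b lost (0.0564). Other calls on these 7 genes were the same under the block, and all genes called, with the comparisons in the order used above, were 6789, 970, 6341, 7639 and 6001. The numbers are not known to pair tumors. With 3 tumors a group and counts as low as 75 for Oas1b in a library, a change of the size of that of Oas2 in p53ERTAM tumors (0.57 ± 0.33) could not be told from 0 at this spread.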
